A study of Mus musculus with 4 samples.

Results

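Glutathione S-transferases join the tripeptide glutathione to reactive, electrophilic compounds, which makes these compounds more soluble and easier to export from the cell. The cytosolic enzymes work as dimers and fall into classes by sequence. In mouse liver, enzymes of the alpha and mu classes are abundant in hepatocytes, the pi class enzyme Gstp1 is also made in bile duct cells, and theta class enzymes act on small halogenated compounds, among other substrates. The 10 genes described here were chosen by name, as rows of the deposited tables, and were 10 of 21878 rows. They were Gsta2, Gsta3 and Gsta4 of the alpha class, Gstm1, Gstm2, Gstm3 and Gstm4 of the mu class, Gstp1 of the pi class, and Gstt1 and Gstt2 of the theta class.

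RNA was measured by sequencing in CD24-positive cells collected from mouse liver on magnetic columns (MACS). All mice were C57BL/6, and injections began at an age of 8 weeks (the samples are labelled 6 to 8 weeks). The CCL4 group (2 libraries) was given carbon tetrachloride, a liver toxin, dissolved in olive oil and injected intraperitoneally at 2 ml/kg, with 2 injections a week over 6 weeks. The HACY group (2 libraries) was given a mixture of the kinase inhibitor Y-27632, A-83-01, which blocks TGF-beta type I receptors, and CHIR99021, which blocks glycogen synthase kinase 3, injected intraperitoneally 3 times a week over 6 weeks. The labels do not make plain if HACY mice had carbon tetrachloride as well, and no untreated or oil-only group was analysed here, so each difference below is HACY relative to CCL4. They also do not tie replicates to separate animals, so the p-values cover only the spread between the sequenced samples, part of which may be technical.

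The libraries held between 18467299 and 19314219 counts. The labels call the cells hepatocytes, and all 10 hepatocyte markers examined had reads, with a summed level of 28168 and 35651 CPM in HACY and 9293 and 7996 CPM in CCL4. CPM are counts scaled to library size, after TMM adjustment. Most of the hepatocyte sum was Alb, with 24005 and 30358 CPM in HACY and 6971 and 5497 in CCL4. Biliary and progenitor markers (8 genes, Cd24a included) summed to 2968 and 4271 CPM in HACY and to 1221 and 2276 in CCL4. Most of this was Spp1, with 2838 and 4120 CPM in HACY and 1083 and 2108 in CCL4. Cd24a had 21.9 and 19.4 CPM in HACY and 20.7 and 38.0 in CCL4. In the edgeR test described below, 0 of the 8 were called higher and 1 lower, beside 8.19% and 3.54% of all tested genes. Macrophage markers (8 genes) summed to 3114 and 2199 CPM in HACY and 907 and 1219 in CCL4, endothelial markers (6 genes) to 1175 and 894 against 385 and 653, and stellate cell and fibroblast markers (6 genes) to 375 and 298 against 147 and 472. Neutrophil markers (8 genes) lay between 18.2 and 22.8 CPM in 3 libraries and at 190 in CCL4 replicate 2. B cell, T and NK cell and red cell precursor markers summed to at most 53.6 CPM in any library, and no marker of any list was at 0 in all 4 libraries. CD24 is found on several of these cell types, and the part of these levels in the results below was not tested.

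Among the 10 genes, 3 of the 4 mu class members were higher in HACY. No alpha, pi or theta class member passed the test in either direction. Gsta1, an alpha class gene outside the 10, was called higher (log2 0.81, edgeR adjusted p = 0.0482). Of the 10 genes, 3 were called higher and 0 lower by edgeR's quasi-likelihood test (Benjamini-Hochberg adjusted p below 0.05 over 13428 tested genes). The other 7 were not called. At an unadjusted edgeR p below 0.05 the counts were 6 higher and 1 lower. DESeq2 called 4 higher and 0 lower, and limma on log2(FPKM + 1) called 3 and 0. Over all tested genes, 8.19% were called higher, 3.54% lower and 11.7% in either direction. The median log2 fold change of the 10 genes was 0.41, beside -0.01 over all tested genes. When libraries were scaled by their totals alone, these medians were 0.24 and -0.18. The groups did not overlap for 7 of the 10 genes (6 higher and 1 lower in HACY), which is close to the 60.8% seen over all tested genes. All 10 genes passed the filter on low counts. In bulk RNA, fewer cells of a type and less RNA per cell cannot be told apart.

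**Figure D1:**
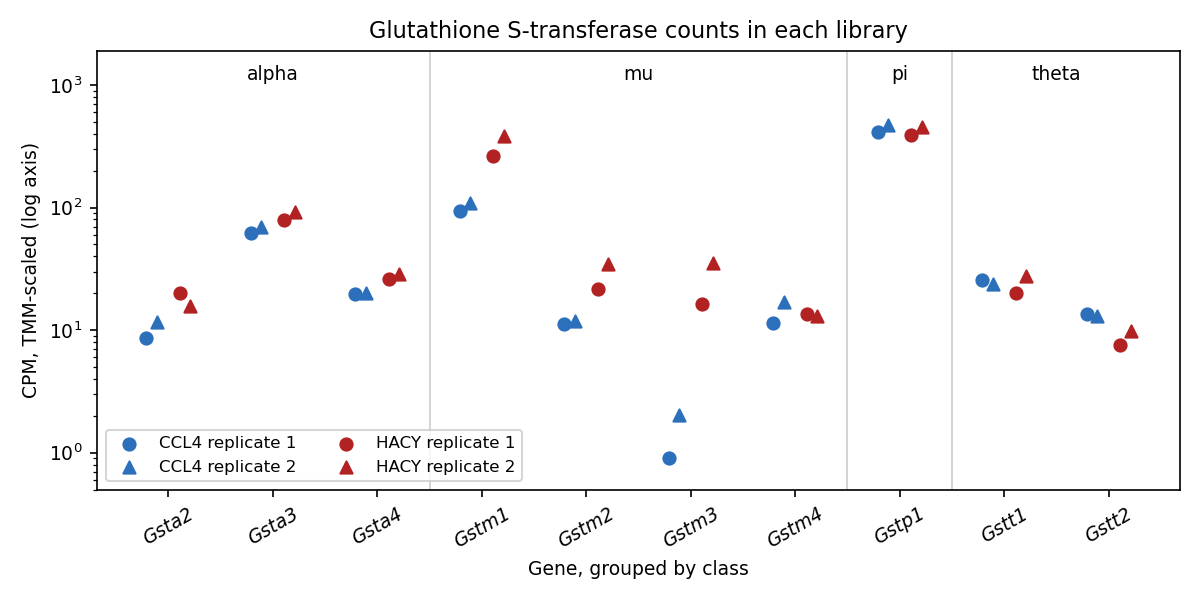
Level of each glutathione S-transferase gene in each of the 4 libraries, in TMM-scaled CPM on a log axis, with genes grouped by class. Circles are replicate 1 and triangles replicate 2 of CCL4 (blue) and HACY (red), and the widest gap between groups is that of Gstm3, at 16.4 and 35.2 CPM in HACY and 0.910 and 2.02 in CCL4.

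**Figure D2:**
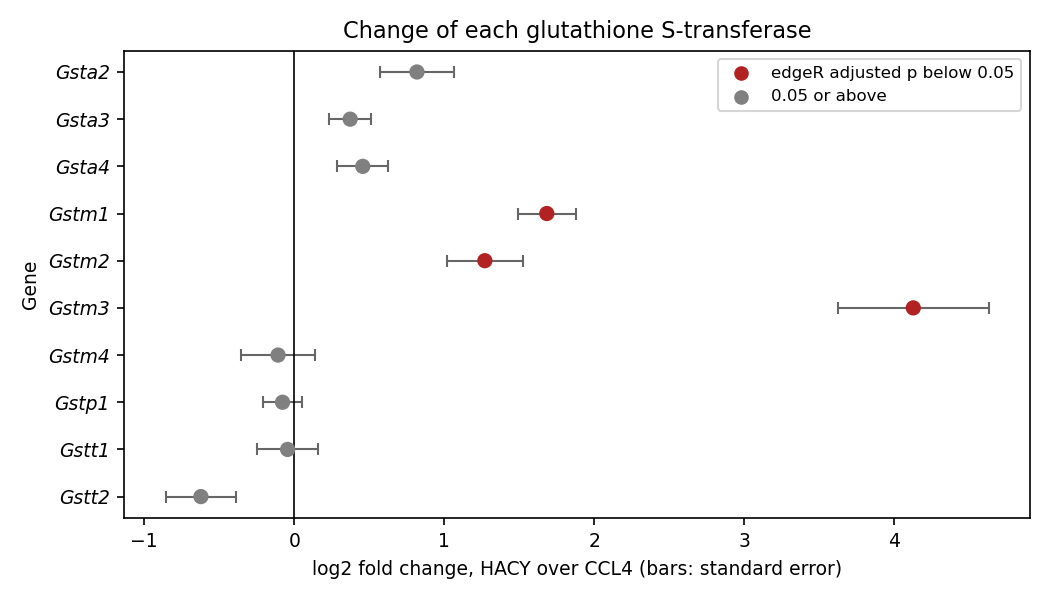
Log2 fold change of each gene, HACY over CCL4, with its standard error as a bar. Red points have an edgeR adjusted p below 0.05, and these are Gstm1, Gstm2 and Gstm3.

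The mu class genes lie side by side on chromosome 3 (GRCm38, GENCODE M21). The cluster runs from Gstm5 at 107895821 to the end of Gstm4 at 108044894, in the order Gstm5, Gstm7, Gstm6, Gstm3, Gstm2, Gstm1 and Gstm4, and all but Gstm5 are on the minus strand. Gaps between neighbours are 7029 to 27647 bases. The coding sequences of the members have the same length, 654 bases, and are similar, so the first 90 coding bases are shown here to let the difference between the 4 genes be seen. They are from the GENCODE M21 reference, 5′ to 3′ from the start codon, and capitals mark bases that differ from Gstm1.
Gstm1: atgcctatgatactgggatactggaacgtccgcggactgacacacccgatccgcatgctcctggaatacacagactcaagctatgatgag
Gstm2: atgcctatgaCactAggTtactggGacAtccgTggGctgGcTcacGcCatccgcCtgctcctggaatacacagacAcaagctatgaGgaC
Gstm3: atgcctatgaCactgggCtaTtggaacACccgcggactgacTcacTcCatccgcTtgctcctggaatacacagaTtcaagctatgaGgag
Gstm4: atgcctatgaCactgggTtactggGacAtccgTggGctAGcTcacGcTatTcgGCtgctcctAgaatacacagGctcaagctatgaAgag
In this stretch Gstm3 differs from Gstm1 at 11 bases, Gstm2 at 15 and Gstm4 at 17. Over the whole coding sequence, Gstm1 shares 89.45% of its bases with Gstm3, 85.93% with Gstm2 and 80.70% with Gstm4.

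The closest pair, Gstm1 and Gstm3, also share a run with no difference. It is shown because a read wholly inside it cannot be given to either gene by its own sequence. It covers coding bases 389 to 500 of both, 112 bases.
Gstm1 and Gstm3: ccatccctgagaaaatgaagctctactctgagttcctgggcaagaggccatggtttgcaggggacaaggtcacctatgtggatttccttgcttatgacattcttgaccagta
Of all 100-base windows in a gene's annotated transcripts, 13.78% of those of Gstm3 also occur in a transcript of another gene. For Gstm1 the share is 5.86%, for Gstm2 0.36% and for Gstm4 0.00%. Shorter windows are shared more often: with 50 bases the shares are 28.76% for Gstm3, 18.88% for Gstm1, 5.65% for Gstm2 and 0.00% for Gstm4. The read length is not stated in any source used here. The other genes that share windows with Gstm1 or Gstm3 include Gstm6 and the pseudogenes Gstm2-ps1 and Gm8834. The longest coding run that Gstm3 and Gstm6 share is 125 bases, coding bases 169 to 293 of both. Libraries were paired-end, and the part of mates that lie outside such a run was not tested. How the authors' counting treated reads that match several genes is not stated in any source used here, and the counts of Gstm1 and Gstm3 are therefore uncertain to that extent.

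Gstm1 encodes a mu class enzyme abundant in liver, and its gene spans 108012255 to 108017973 on chromosome 3. It had 264 and 386 CPM in the HACY libraries and 94.1 and 108 CPM in the CCL4 libraries (4834, 6797, 1861 and 2194 counts). Both HACY libraries were above both CCL4 libraries, and HACY replicate 2 was the highest. The means were 325 ± 86.1 and 101 ± 9.93 CPM (SD, n = 2 each), and Gstm1 rose 3.21-fold (log2 1.68, SE 0.19, edgeR adjusted p = 0.00350). Across 14 other settings its log2 fold change stayed between 1.39 and 1.93. The call was lost in 1 of them, limma on log2(FPKM + 1) with no filter on low values (adjusted p = 0.0541).

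Gstm2, another mu class enzyme with overlapping substrates, spans 107981702 to 107986453 on the same chromosome. Its level was 21.7 and 34.3 CPM in HACY and 11.2 and 12.0 CPM in CCL4. The groups did not overlap, but the HACY libraries lay further apart than those of CCL4, with means of 28.0 ± 8.95 and 11.6 ± 0.532 CPM (SD, n = 2 each). Gstm2 rose 2.41-fold (log2 1.27, SE 0.25, edgeR adjusted p = 0.0226). Its call was lost in 3 of the 14 other settings, 1 of them limma on log2(FPKM + 1) with no filter on low values. This call is less firm than that of Gstm1: the log2 fold change was 0.90 without HACY replicate 2 (adjusted p = 0.145) and 1.23 without CCL4 replicate 1 (0.0586), and neither passed.

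Gstm3, a mu class enzyme whose gene spans 107963696 to 107969283, had the largest difference of the 10 genes. There were 300 and 620 counts of it in HACY and 18 and 41 in CCL4. The 95% exact Poisson intervals of the CCL4 counts were 10.7 to 28.4 and 29.4 to 55.6 and cover counting error only, so the CCL4 level was low but measured in both libraries. In CPM the values were 16.4 and 35.2 in HACY and 0.910 and 2.02 in CCL4, means of 25.8 ± 13.3 and 1.47 ± 0.785 (SD, n = 2 each). In both groups replicate 2 was about 2 times replicate 1, but the lower HACY library was well above the higher CCL4 library. Gstm3 rose 17.5-fold (log2 4.13, SE 0.50, edgeR adjusted p = 0.00434), which placed it 14 of 13428 tested genes in order of log2 fold change. With each library left out in turn the log2 fold change was between 3.48 and 4.81, and the call was kept each time. It was lost with limma on unfiltered log2(FPKM + 1) (3.09, adjusted p = 0.0554).

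Gstm4, at 108040408 to 108044894 the last gene of the cluster, did not follow its neighbours. It had 13.5 and 12.9 CPM in HACY and 11.5 and 17.0 CPM in CCL4. Both HACY values lay between the CCL4 values, and the difference on the log2 scale was -0.11 (SE 0.25, edgeR adjusted p = 0.809), turning to 0.20 without CCL4 replicate 2.

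The 3 other mu genes of the cluster, which are not among the 10, moved in different ways. Gstm7 had 6.39 and 7.77 CPM in HACY and 2.68 and 2.71 in CCL4 (log2 1.39, SE 0.30, edgeR adjusted p = 0.0298), which was no longer called after removal of HACY replicate 1 (adjusted p = 0.113), HACY replicate 2 (0.210) or CCL4 replicate 1 (0.0503). Gstm6 had 12.7 and 13.3 CPM against 8.49 and 5.13 and was not called (log2 0.94, adjusted p = 0.0837), but was without CCL4 replicate 1 (0.0276) and by DESeq2 (0.0443). Gstm5, the gene on the plus strand, had 11.1 and 12.9 CPM against 19.3 and 19.1 (log2 -0.67, adjusted p = 0.0692), and was called lower with scaling by library totals (0.0298). Thus 4 of the 7 genes of the cluster were called higher, beside 8.19% of all tested genes. These were Gstm7 and the neighbours Gstm3, Gstm2 and Gstm1, which are the 3 members already counted above.

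**Figure D3:**
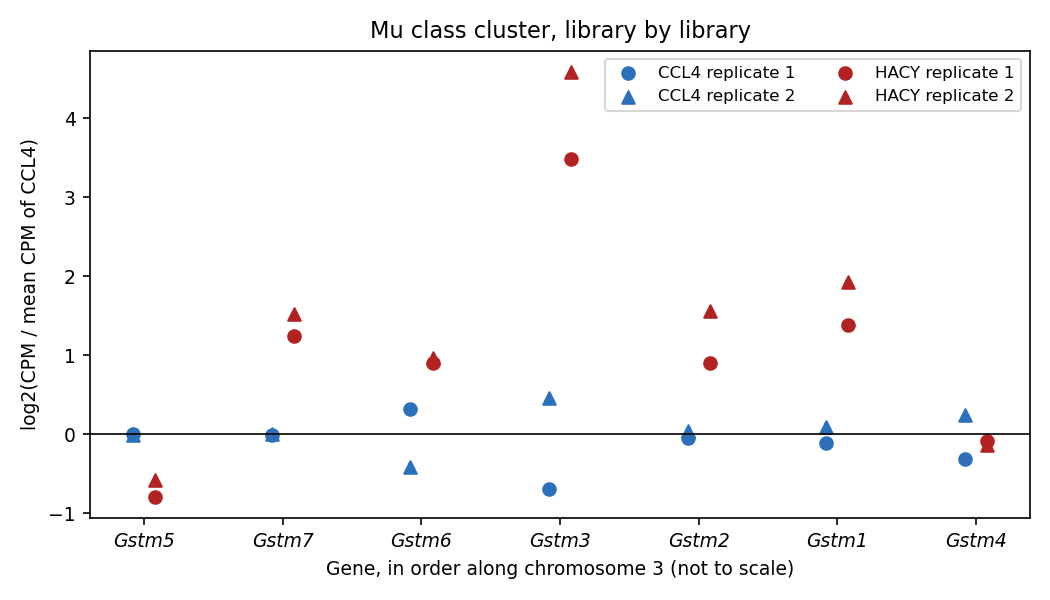
Level of each mu class gene in each library relative to its mean in CCL4, as log2 of the CPM ratio, with genes in their order along chromosome 3 (distances not to scale). Gstm3 is farthest above 0 in both HACY libraries, Gstm7, Gstm6, Gstm2 and Gstm1 are above 0 in both, and Gstm5 and Gstm4 are not.

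The 3 alpha class members were each higher in both HACY libraries than in both CCL4 libraries, but none passed the test. Such a lack of overlap is common here: of 13428 tested genes, 4127 were higher in this sense, and 60.8% did not overlap in either direction. Gsta3, on chromosome 1 (21240589 to 21265661, plus strand), is an abundant liver enzyme that detoxifies aflatoxin epoxide in mice. It had 79.0 and 91.4 CPM in HACY and 61.9 and 69.7 in CCL4 (log2 0.37, SE 0.14, edgeR adjusted p = 0.129). Gsta4, on chromosome 9 (78182774 to 78209349, plus strand), acts on 4-hydroxynonenal, a product of lipid peroxidation. It had 26.2 and 28.7 CPM in HACY and 19.9 and 20.1 in CCL4 (log2 0.46, SE 0.17, edgeR adjusted p = 0.123). Neither gene was called in any of the 14 other settings. No 100-base window of Gsta3 or Gsta4 occurs in another gene's transcripts (0.27% and 0.00% of 50-base windows do).

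Gsta2, an enzyme with peroxidase activity towards lipid hydroperoxides, lies on chromosome 9 (78331018 to 78355788, minus strand). Its level was 20.2 and 15.6 CPM in HACY and 8.65 and 11.6 CPM in CCL4, means of 17.9 ± 3.21 and 10.1 ± 2.11 (SD, n = 2 each). The groups did not overlap, and the log2 fold change of 0.82 (SE 0.25) had an edgeR adjusted p = 0.0754. The call changed with the setting: the adjusted p was 0.0414 by DESeq2 and 0.0301 without CCL4 replicate 2, where the log2 fold change was 1.05. Among the alpha members, Gsta2 is also the one whose count is least certain. Its coding sequence is 98.05% identical to that of Gsta1 (653 of 666 aligned bases), the first 196 coding bases are the same, and 28.37% of its 100-base windows (49.79% of its 50-base windows) occur in other genes. With 100 bases, those are Gsta1, Gm3776 (103 to 175 counts per library) and Gm10639 (0 to 14 counts).

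Gsta1, the near-copy of Gsta2, had 41.8 and 35.9 CPM in HACY and 18.5 and 25.8 in CCL4 (log2 0.81, SE 0.21, edgeR adjusted p = 0.0482), which was no longer called after removal of HACY replicate 1 (0.257), HACY replicate 2 (0.0929) or CCL4 replicate 1 (0.0812). Of the 100-base windows of Gsta1, 80.58% (90.50% of its 50-base windows) occur in other genes. The count of Gsta1 is therefore less certain than that of Gsta2. Of its 855 windows of 100 bases, 553 occur in Gm3776 and 208 in Gsta2. Reads moved between Gsta1 and Gsta2 would stay inside the sum over the class. Reads given to Gm3776 or Gm10639 would not, and their part was not tested. Summed over Gsta1, Gsta2, Gsta3 and Gsta4, the level was 167 and 172 CPM in HACY and 109 and 127 CPM in CCL4, a ratio of means of 1.44. Without Gsta1, the 3 members summed to 125 and 136 against 90.5 and 101 CPM, a ratio of 1.36.

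Gstp1, on chromosome 19 (4035407 to 4037985, minus strand), had the highest level of the 10 genes in every library and was similar in both groups. Its enzyme also binds signalling kinases such as JNK. It had 391 and 452 CPM in HACY and 415 and 475 CPM in CCL4, means of 422 ± 42.8 and 445 ± 42.5 (SD, n = 2 each). The groups overlapped and the difference in means was smaller than the spread between replicates (log2 -0.08, SE 0.13, edgeR adjusted p = 0.739). Gstp1 and its neighbour Gstp2 share 98.10% of their coding bases (618 of 630), with no difference from coding base 331 to 630, and 25.09% of the 100-base windows of Gstp1 (33.74% of the 50-base windows) occur in Gstp2 or in the pseudogene Gstp-ps. Gstp2 itself was counted at only 0.983 and 1.02 CPM in HACY and 1.62 and 1.92 in CCL4 (log2 -0.82, edgeR adjusted p = 0.251). Both genes together had 392 and 453 CPM in HACY and 417 and 477 in CCL4, a ratio of means of 0.946, beside 0.947 for Gstp1 alone.

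Both theta class genes lie on chromosome 10, minus strand, and neither was called. Gstt1 (75783813 to 75798584), an enzyme that acts on dihalomethanes, had 20.2 and 27.7 CPM in HACY and 25.4 and 23.9 in CCL4. Both CCL4 values lay between those of HACY (log2 -0.04, SE 0.20, edgeR adjusted p = 0.912). Gstt2 (75831114 to 75837424) had 7.59 and 9.76 CPM in HACY and 13.7 and 13.1 in CCL4, and was the only one of the 10 genes that was lower in both HACY libraries than in both CCL4 libraries. Its means were 8.68 ± 1.53 and 13.4 ± 0.417 CPM (SD, n = 2 each; log2 -0.62, SE 0.24, edgeR adjusted p = 0.129). The smallest adjusted p in any of the 14 other settings was 0.0502. No 100-base window of either gene occurs in another gene (0.00% of the 50-base windows of Gstt1 and 0.64% of those of Gstt2 do), and their coding sequences share 64.30% of aligned bases.

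Levels of different genes can be compared only per length, so the order of the 10 genes was taken from the deposited FPKM (fragments scaled to gene length and library size). For some close relatives the FPKM were not the counts rescaled. In the CCL4 libraries Gm10639 had 0 and 0 counts but 0.618 and 1.18 FPKM, and Gstp2 had 32 and 39 counts but 0.668 and 2.61 FPKM. The effect of this on the order, shares and ratios was not tested. In CCL4 the order of means was Gstp1 (521 and 581 FPKM), Gstm1 (44.7 and 51.7), Gsta3 (23.1 and 27.4), Gsta4 (14.5 and 15.6), Gstt1 (12.6 and 11.2), Gstm2 (8.87 and 10.2), Gstm4 (5.65 and 8.09), Gstt2 (5.71 and 5.68), Gsta2 (4.30 and 6.75) and Gstm3 (0.752 and 1.53). Among neighbours in that order, Gstm4 and Gstt2 overlapped, as did Gstt2 and Gsta2. In HACY the order was Gstp1 (468 and 526 FPKM), Gstm1 (122 and 174), Gsta3 (28.1 and 30.7), Gstm2 (17.9 and 26.8), Gsta4 (17.8 and 19.3), Gstm3 (11.5 and 24.7), Gstt1 (9.57 and 12.6), Gsta2 (9.96 and 7.29), Gstm4 (6.35 and 5.68) and Gstt2 (3.42 and 3.76). Here each gene from Gstm2 to Gstt1 overlapped with the next, and Gsta2, Gstm4 and Gstt2 did not overlap with each other. Gstp1, Gstm1 and Gsta3 were at ranks 1 to 3 in both groups with no overlap, while Gstm3 went from rank 10 in CCL4 to rank 6 in HACY.

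The make-up of the transferase RNA differed accordingly. Gstp1 took 67.4% and 63.3% of the 10 genes' summed FPKM in HACY and 81.2% and 80.8% in CCL4. The 4 mu genes took 22.7% and 27.8% in HACY and 9.36% and 9.93% in CCL4, of which Gstm1 alone made up 17.6% and 20.9%, and 6.98% and 7.18%. Both shares lay further apart between groups than between replicates. For each share, the two-sided exact permutation test gave p = 0.333, and 2 libraries against 2 cannot give less. The summed FPKM itself overlapped between groups, at 695 and 830 in HACY and 641 and 720 in CCL4.

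**Figure D4:**
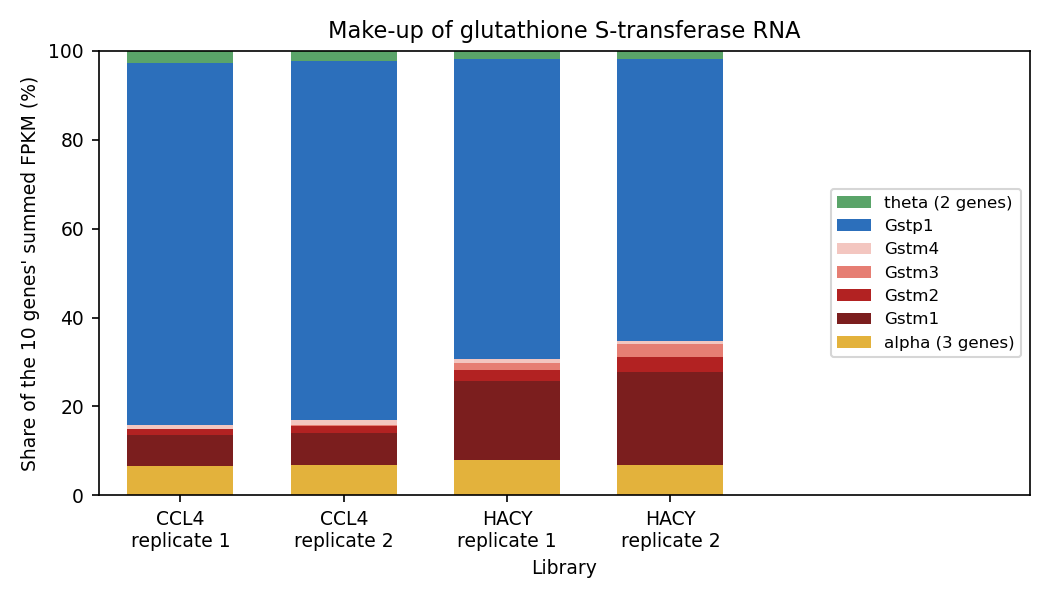
Share of each gene or class in the summed FPKM of the 10 genes, in percent, 1 bar per library. Gstp1 (blue) makes up more of the CCL4 bars (81.2% and 80.8%) than of the HACY bars (67.4% and 63.3%), and Gstm1 (darkest red) less.

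Ratios within the mu class, taken in the same library, do not depend on how libraries were scaled. Gstm3 stood at 0.0938 and 0.142 of the Gstm1 level (FPKM) in HACY and at 0.0168 and 0.0296 in CCL4, a 5.08-fold difference in the mean ratio. Gstm2 stood at 0.147 and 0.154 of Gstm1 in HACY and 0.198 and 0.197 in CCL4, and Gstm4 at 0.0520 and 0.0326 against 0.126 and 0.157. Thus relative to Gstm1, Gstm3 was higher in both HACY libraries, and Gstm2 and Gstm4 were lower in both. The ratio of Gstm1 to Gstp1 was 0.261 and 0.331 in HACY and 0.0859 and 0.0889 in CCL4. The exact two-sided permutation p was 0.333 for each of these ratios, again the smallest possible.

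The count and FPKM columns gave similar fold changes, lower on the FPKM scale for all 10 genes. The CPM were divided by TMM factors of 0.956 and 0.928 in HACY and 1.07 and 1.05 in CCL4. These factors raise every HACY to CCL4 ratio in CPM and were not applied to the FPKM. The ratio of means was 3.07 in FPKM and 3.21 in CPM for Gstm1, 2.35 and 2.41 for Gstm2, 15.8 and 17.6 for Gstm3, and 1.56 and 1.76 for Gsta2. For genes that were not called and lay close to even, it was 0.902 and 0.947 for Gstp1 and 0.928 and 0.970 for Gstt1. Summed over the 4 mu members, the level was 316 and 468 CPM in HACY and 118 and 139 in CCL4 (ratio 3.05), or 158 and 231 FPKM against 60.0 and 71.4 (ratio 2.96). Over all 7 mu genes of the cluster the ratio was 2.70 in CPM. Reads assigned to the wrong one of these 7 genes stay in this sum, but reads that were dropped or given to pseudogenes such as Gstm2-ps1 and Gm8834 do not, and their part was not tested. The theta members summed to 27.7 and 37.5 CPM in HACY and 39.1 and 37.0 in CCL4.

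**Figure D5:**
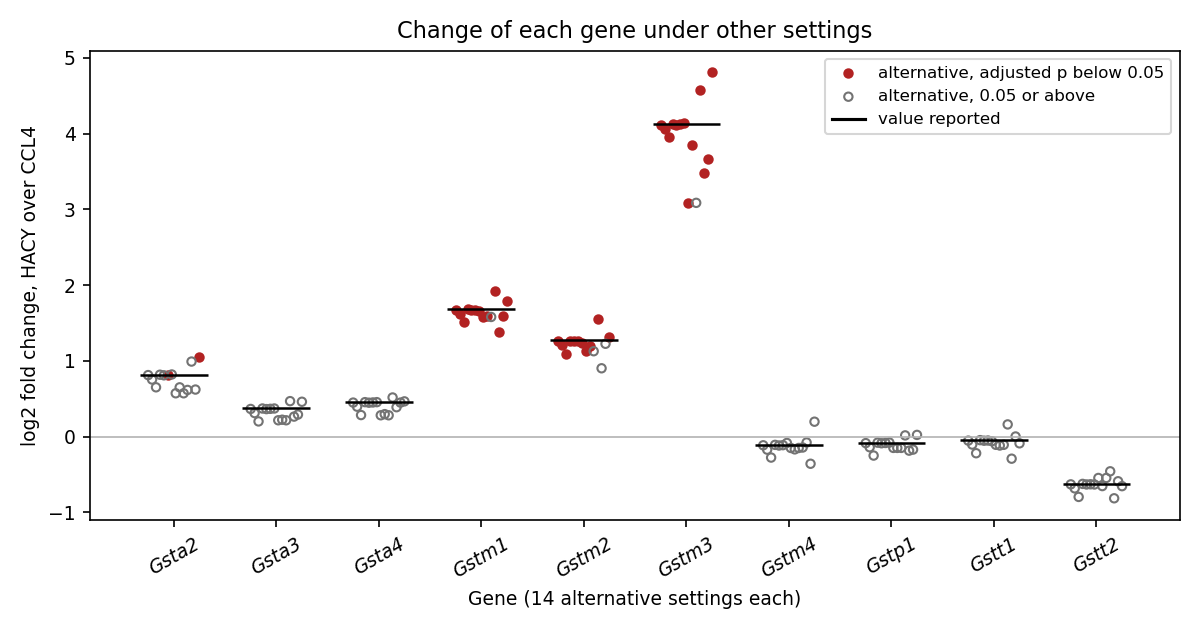
Log2 fold change of each gene, HACY over CCL4, under 14 other settings (points) and as reported (black lines). Filled red points have an adjusted p below 0.05. Gstm1 and Gstm3 were called in 13 of the 14 settings, Gstm2 in 11 and Gsta2 in 2, and the points of Gstm4, Gstp1 and Gstt1 lie on both sides of 0.

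The expression pattern nearest to that of Gstm3 was sought among 10988 tested genes whose mean was 5 CPM or more, by the distance between centred log2 CPM values over the 4 libraries. The nearest were Serpina6, which encodes corticosteroid-binding globulin (distance 0.675), Cyp1a2, a hepatocyte oxidase (0.747), and Prg4, the gene of lubricin (0.823). Serpina6 had 28.8 and 39.4 CPM in HACY and 1.77 and 2.32 CPM in CCL4. With 4 libraries in 2 groups, such a distance mainly describes the size of the group difference.

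Other enzymes that use glutathione for conjugation or isomerization, or belong to related families, were read from the same fit. Of 21 such genes listed, Gsta5 and Gstp3 had no row under these symbols. Of the other 19, 17 were tested, with 4 called higher, 1 lower and a median log2 fold change of 0.47. Over all tested genes, 8.19% were called higher and 3.54% lower, and the median was -0.01. Hpgds, the sigma class transferase that makes prostaglandin D2 and is found in macrophages and other immune cells, had 22.8 and 15.8 CPM in HACY and 4.50 and 4.73 in CCL4 (log2 2.06, SE 0.26, edgeR adjusted p = 0.00470). Ptges, a microsomal prostaglandin E synthase, was the one that fell (log2 -1.09, SE 0.18, adjusted p = 0.0129, and 0.0783 without HACY replicate 2). Gstz1, a zeta class enzyme of tyrosine breakdown, had a log2 fold change of 0.61 (SE 0.15, adjusted p = 0.0457), which was no longer called after removal of HACY replicate 1 (0.350), HACY replicate 2 (0.162) or CCL4 replicate 2 (0.0506). The other 2 called higher were Gstm7 and Gsta1, given above. Of those not called, Mgst1, the microsomal transferase of liver, had 189 and 233 CPM against 155 and 132 (log2 0.56, adjusted p = 0.0557). It was called by DESeq2 (0.0210), with no filter on low counts (0.0322) and without CCL4 replicate 1 (0.0492). Gsto1, an omega class enzyme (0.25), Gstk1, the kappa class enzyme of mitochondria and peroxisomes (0.47), and Mgst3 (0.23), Gstcd (0.10) and Ltc4s (0.89) were above 0, and Gstt3 (-0.77) and Gsto2 (-0.73) below, none called. Alox5ap, the partner protein of 5-lipoxygenase, was at 0.65 (adjusted p = 0.476) and was called without CCL4 replicate 2 (0.0101). Gstt4 and Mgst2 had too few counts to be tested.

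The counts of called genes in the lists below stand beside 8.19% called higher and 3.54% called lower over all tested genes. Of 16 genes of glutathione synthesis and recycling, 2 were called higher and 1 lower, few enough to lie near those shares (median log2 fold change 0.08, and -0.09 when libraries were scaled by totals alone). Slc7a11, the cystine importer that feeds glutathione synthesis, fell from 327 and 299 CPM in CCL4 to 134 and 113 in HACY (log2 -1.34, SE 0.14, edgeR adjusted p = 0.00231), and the call was kept in all 14 other settings. Gclc, the catalytic subunit of the first enzyme of synthesis, was not called (-0.37, adjusted p = 0.116). Ggct, which breaks down gamma-glutamyl peptides, had 0.62 (adjusted p = 0.0298), and Idh1, a source of NADPH, 0.55 (0.0403). Ggct was not called after removal of HACY replicate 1 (0.0817) or HACY replicate 2 (0.261), nor was Idh1 (0.244 and 0.266, and 0.0629 after removal of CCL4 replicate 1).

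Of 19 glutathione peroxidases and redoxins listed, 17 were tested, of which 3 were called higher and 0 lower (median 0.19). Glrx, glutaredoxin, rose from 39.4 and 53.4 CPM to 122 in both HACY libraries (log2 1.39, SE 0.17, edgeR adjusted p = 0.00390). Gpx1, the main cytosolic peroxidase, had 0.68 (SE 0.12, adjusted p = 0.0152, and 0.104 without HACY replicate 2), and Gpx3, the secreted one, 1.34 (SE 0.32, adjusted p = 0.0394, and 0.112 and 0.0855 without HACY replicate 1 or 2). Gpx4, which protects membranes from lipid peroxidation, was not called (-0.52, adjusted p = 0.0783), and 1 gene of the list was called lower without CCL4 replicate 1. At an unadjusted edgeR p below 0.05, 1 gene of the list was lower, DESeq2 called 1 lower and limma 0.

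After conjugation, products are exported and trimmed to mercapturic acids. Of 22 genes of this route listed, 18 were tested, with 3 called higher and 1 lower, against 8.19% and 3.54% over all tested genes (median 0.15, and -0.02 when scaled by totals alone). Dpep2, a dipeptidase, had 5.02 and 5.05 CPM in HACY and 0.354 and 1.43 in CCL4 (log2 2.48, SE 0.58, edgeR adjusted p = 0.0365). Anpep, an aminopeptidase, had 0.64 (adjusted p = 0.0358), Abcc5, an export pump, 0.62 (0.0326), and Abcc2, the pump at the bile canaliculus, -0.54 (0.0428). Without HACY replicate 1, none of these 4 was called (adjusted p = 0.0833 for Dpep2, 0.306 for Anpep, 0.274 for Abcc5 and 0.260 for Abcc2). Without HACY replicate 2, Anpep was called (0.0479) and Dpep2, Abcc5 and Abcc2 were not (0.0817, 0.152 and 0.171). Anpep and Abcc2 were also not called without CCL4 replicate 1 (both 0.0728).

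NRF2 is a transcription factor that induces many transferase genes. Other known targets of it were read from the same fit, and a part of NRF2 in the levels of the 10 genes was not tested. Of 20 tested, 0 were called higher and 3 lower, with a median log2 fold change of -0.25. No target was higher at an unadjusted edgeR p below 0.05, by DESeq2 or by limma (0 in each). The 3 were Slc7a11, counted above, Osgin1, an oxidative stress-induced growth inhibitor (-0.72, edgeR adjusted p = 0.0160), and Sqstm1, the autophagy receptor p62 (-0.71, adjusted p = 0.0272). Groups did not overlap for 12 of the 20, a share close to the 60.8% over all tested genes, and were lower in 10 and higher in 2. Over all tested genes, 4040 were lower and 4127 higher in this sense. The calls of Osgin1 and Sqstm1 were lost without HACY replicate 2 (0.105 and 0.166) or CCL4 replicate 1 (0.0526 and 0.0817).

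Of 18 regulators of transferase genes, 0 were called higher and 2 lower (median -0.11). The number higher was also 0 at an unadjusted edgeR p below 0.05, by DESeq2 and by limma. Cebpa, a hepatocyte transcription factor, had 38.9 and 32.5 CPM in HACY and 66.5 and 66.3 in CCL4 (log2 -0.90, SE 0.15, edgeR adjusted p = 0.0130, and 0.10 without HACY replicate 2). Cebpb, a related factor of the acute phase, had 45.0 and 37.9 CPM against 69.3 and 176 (log2 -1.56, SE 0.39, adjusted p = 0.0449), and was not called without HACY replicate 1 or 2 (0.415 and 0.440) or by DESeq2 (0.0755). Nr1i3, the receptor CAR (-1.30, adjusted p = 0.173), and Mafk, a partner of NRF2 (-0.32, 0.226), were not called. In the 250 bases before the start site, the motif TGANTCA was found in the window of Gstp1 and TGACNNNGC in that of Gsta3, searched on both strands. Windows were matched for 8 of the 10 genes (10 windows, RefSeq, GRCm38.p6), and over all 32851 windows the motifs were in 6.75% and 10.16%. Gsta4 and Gstt2 were not matched.

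Of 25 glucuronosyl-, sulfo-, acetyl- and methyltransferases listed, 21 were tested, of which 9 were called higher and 0 lower, with a median log2 fold change of 1.08. The number lower was 0 at an unadjusted edgeR p as well, and by DESeq2 and limma. Ugt1a1, which conjugates bilirubin, had 33.3 and 37.2 CPM in HACY and 9.56 and 7.49 in CCL4 (log2 2.05, SE 0.20, edgeR adjusted p = 0.00221). Ugt2b36 (2.34, SE 0.24, adjusted p = 0.00260) and Ugt3a2 (1.96, SE 0.23, 0.00373), both of the glucuronosyl- and related glycosyltransferases, and Sult1a1, a phenol sulfotransferase (2.04, SE 0.25, 0.00390), also rose. Ugt1a and Ugt2b genes have close relatives or shared exons, so their counts are uncertain. Beside this, 8 of 10 hepatocyte markers and 7 of 8 macrophage markers were called higher, with medians of 1.28 and 1.61, and their part in the rise of Gstm1, Gstm2, Gstm3, Hpgds and these enzymes was not tested.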

How the data were processed

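For each of the 4 libraries the authors deposited 1 table, in which every gene symbol has a count and an FPKM. The count column holds whole numbers of reads per gene, per the file headers, and the FPKM column was scaled to length and depth by the authors, per the file headers. Libraries were made from mRNA with a stranded paired-end kit, per the labels' protocols. The tools Trimmomatic, HISAT2, Cufflinks, HTSeq and DESeq and the build mm10 (GRCm38) are named, with no versions, per the submitters' processing notes. The annotation, the strand setting and the handling of reads with several matches are not stated in any source used here.

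The count test was edgeR 4.0.16 (R 4.3.3): filterByExpr (minimum count 10, minimum total 15), TMM, robust quasi-likelihood fit with treatment as the only term, two-sided, Benjamini-Hochberg adjustment over 13428 genes, threshold 0.05. Standard errors are the log2 fold change over the square root of F. A count of 0 allows up to 3 counts, 0.148 to 0.170 CPM, counting error only. Replicates were not copies (chi-square per degree of freedom 16.7 for HACY and 30.0 for CCL4). Alternatives were scaling by RLE, by upper quartile and by library size alone, no filter, at least 50 counts in 2 libraries, DESeq2 1.42.0, a replicate block, each library left out, and limma 3.58.1 on log2(FPKM + 1) or log2(FPKM + 0.1) with FPKM of at least 1 in 2 libraries, or with no filter. The test scripts were tested on simulated data. Loci and coding sequences are of GENCODE M21, aligned with Biopython 1.88.

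The genes described, the pathway and marker lists and the tests were chosen with earlier results of these data known. All 10 genes and the related transferases are named. From each other pathway list up to 4 tested genes with the smallest p are named, and for the gene with the largest fold the 3 nearest genes by pattern.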

Additional observations from a re-analysis of the deposited data

How the results depend on the processing

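Direction and call were the same in all 14 other settings for Gsta3, Gsta4 and Gstt2 (never called), and direction for Gstm1, Gstm2, Gstm3 and Gsta2. Signs of uncalled values turned for Gstm4 (-0.36 to 0.20 with each library left out; above 0 without CCL4 replicate 2), Gstp1 (-0.18 to 0.023; 0.016 without HACY replicate 1 and 0.023 without CCL4 replicate 2), Gstt1 (-0.29 to 0.16; 0.16 without HACY replicate 1 and 0.0019 without CCL4 replicate 1), Alox5ap (-0.022 to 1.94) and Mgst3 (-0.13 to 0.72), both below 0 without CCL4 replicate 1, and Gstcd (-0.074 by library size). Leaving out each library gave 530 to 1840 higher and 99 to 1207 lower among all genes, 2 to 4 higher and 0 lower among the 10 transferases, and 1 to 4 higher and 0 to 1 lower among the related ones. It gave 0 to 2 higher and 1 to 1 lower for synthesis and recycling, 1 to 4 and 0 to 1 for peroxidases and redoxins, 1 to 3 and 0 to 1 for export, 1 to 3 lower for NRF2 targets, 0 to 3 lower for regulators and 6 to 9 higher for other conjugating enzymes. With limma on log2(FPKM + 1) or log2(FPKM + 0.1), 670 and 673 genes were higher. Related transferases were then 2 higher and 2 lower in both, synthesis 0 and 1 higher, export 0 higher in both and regulators 1 lower in both. With limma and no filter, 180 genes were higher and 62 lower: 0 of the 10 transferases, 0 higher and 0 lower of the related ones, 0 higher in synthesis, peroxidases and export, 0 lower in export and regulators, 1 lower NRF2 target and 3 higher conjugating enzymes. By library size 856 genes were higher and 1355 lower, against 1100 and 476. Related transferases were then 2 and 2, synthesis 0 and 3, peroxidases 2 lower, export 1 higher and NRF2 targets 6 lower. DESeq2 called 730 lower genes, 1 lower peroxidase or redoxin and 1 lower regulator. Upper-quartile scaling left 2 related transferases and 1 synthesis gene higher. No filter on low counts gave 1 lower peroxidase or redoxin and 1 lower regulator, and the stricter filter 1 lower regulator. The cause of these changes was not tested.

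The labels do not say that replicate numbers pair the libraries. Deviations of same-numbered libraries from their group means had a Pearson r of -0.0989 across the 13428 tested genes, which are not independent replicates. With the replicate block, 893 genes were higher and 331 lower, 3 of the 10 transferases were higher, 1 related transferase and 1 synthesis gene were higher, and 0 export genes and 1 regulator were lower. Depth limits mainly Gstm3 in CCL4, with 18 and 41 counts.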
